A study of Homo sapiens with 6 samples.

Results

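The BCL2 family decides at the mitochondrion whether a cell lives or dies, and the RNA of 10 of its genes was followed in MCF10A mammary epithelial cells with and without growth factors. The genes were taken by name and role, out of 19198 genes in the deposited table. They were the pro-survival genes BCL2, BCL2L1 and MCL1, the BH3-only genes BCL2L11, BMF, BBC3, PMAIP1 and BID, and the effectors BAX and BAK1. All 10 were listed, and all 10 passed the filter on low values. MCF10A is an established, non-transformed line from the breast of a donor with fibrocystic disease. The labels describe it as luminal ductal cells, whereas the study calls it normal-like and basal. Total RNA was sequenced from 6 samples. In 3 of them the medium was complete, with hydrocortisone at 0.5 µg/ml, cholera toxin at 100 ng/ml, insulin at 10 µg/ml and EGF at 20 ng/ml. The growth factor-depleted medium of the other 3 left out all of these, and both media held 5% horse serum. The day of harvest is not given for these samples, a single line was used, and whether the replicates were separate cultures is not said, so p-values measure the spread between these samples. The comparison asks how gene expression changes when these factors are withdrawn, a treatment the study used to make the cells lose their epithelial character.

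Pro-survival proteins hold the effectors BAX and BAK1 in check by binding them or the BH3-only proteins. BH3-only proteins carry the stress signal. They occupy the groove of the pro-survival proteins or activate the effectors directly, after which BAX and BAK1 open the outer mitochondrial membrane, cytochrome c leaves and caspases are activated by APAF1. In mammary epithelial cells BIM, the product of BCL2L11, and BMF are known for the death of cells that have lost growth factor signals or contact with the matrix, as in the hollowing of MCF10A acini in culture. Many of these proteins are controlled by phosphorylation and degradation, which RNA does not show.

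The start sites of the members were read for 4 short motifs, because the study is about a RUNX factor, because cholera toxin raises cyclic AMP, and because FOXO and AP-1 factors respond to growth factor signalling. RefSeq windows (GRCh38.p14) from 250 bases before to 50 bases after each start were present for 9 of the 10 members, in 15 windows, with MCL1 not among them. Each stretch below is printed in the direction of its gene, with the matched letters in capitals. The RUNX motif (TGTGGT, printed as its reverse complement) was found near the starts of BCL2 and BCL2L1, the CRE core (TGACGT, printed as its reverse complement) in PMAIP1, the FOXO motif (GTAAACA) in BCL2L11 and the AP-1 motif (TGANTCA) in BBC3. All matches found in the windows of the members are shown.
PMAIP1, chr18:59899913-59899972, plus strand, CRE at -56: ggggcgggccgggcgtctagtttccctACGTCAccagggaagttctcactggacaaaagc
BCL2, chr18:63319725-63319784, minus strand, RUNX at 12: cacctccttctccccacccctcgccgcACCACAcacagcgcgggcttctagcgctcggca
BCL2L1, chr20:31724164-31724213, minus strand, RUNX at -233: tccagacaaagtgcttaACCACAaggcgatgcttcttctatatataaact
BCL2L11, chr2:111120664-111120724, plus strand, FOXO at -223: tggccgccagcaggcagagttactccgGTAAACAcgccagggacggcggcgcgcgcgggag
BBC3, chr19:47232747-47232807, minus strand, AP-1 at -113: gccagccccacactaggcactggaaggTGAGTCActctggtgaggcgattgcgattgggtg
Positions count from 0 at the start base, negative before it. Both strands were searched, and no motif contains another. Of 35116 RefSeq windows of this length, 13.1% held the RUNX letters, 7.98% the CRE core, 3.42% the FOXO letters and 7.71% the AP-1 letters, so each match is a description of the window and says nothing about binding.

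Values are normalized counts, the reads of a gene divided by the sample's size factor, which corrects for depth and not for gene length. Between 7472418 and 28672630 reads per sample fell on genes, and 3 reads, taken as the floor, correspond to 1.76 to 6.71 normalized counts. The members rested on 13 to 14222 reads per sample, so that 9 of the 10 were far above the floor and BCL2 was the thinnest. Samples are given as replicates 1, 2 and 3 in order. Bulk RNA cannot tell fewer expressing cells from less RNA per cell. The depleted cells had turned on mesenchymal markers, with 9 of 10 called higher and a summed level of 129055 to 194644 against 3953 to 11452, and CDH1 (E-cadherin) was at 609.6 in depleted replicate 1 but at 13234 and 13118 in replicates 2 and 3. Of the luminal markers 1 of 10 was called lower and of the basal markers 3 of 9, beside 1.97% of all genes tested. None of either list was called higher. Not all moved down, since KRT8 and KRT18 of the luminal list had log2 fold changes of 1.10 and 1.17, with overlapping groups. Of the basal list KRT14 was at 2.69, with overlapping groups, and KRT17 at 2.44, higher in every depleted sample. The other markers of both lists had negative log2 fold changes. Of 7 leukocyte markers 3 were listed and none was called (summed level 284 to 909 with and 96.4 to 665 without growth factors), and PTPRC, which defines leukocytes, was at 1.3, 0 and 2 with and at 10.1, 13.8 and 11.2 without, too low to be tested. CD14 made up most of that sum (log2 fold change -1.53, adjusted p = 0.355), and LYZ did not exceed 25.1 (-1.09, adjusted p = 0.484). Of 5 endothelial markers 4 were listed (167 to 1787 with and 265 to 1610 without), of which CDH5 was called higher, at up to 118.7, PECAM1 was at 91.5 to 1582 with overlapping groups, and VWF did not exceed 13.4. The other, KDR, was at 778, 32.2 and 66.9 with growth factors and at 0, 24.9 and 22.4 without, and was not called (adjusted p = 0.193). The part of the shift in cell state in the values below was not tested.

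Without growth factors the RNA of PMAIP1 and BCL2L1 was called higher, the former 5.08-fold and the latter 2.71-fold, while no member was called lower. Under 20 other ways of processing the data PMAIP1 kept its call throughout, and BCL2L1 lost it in 8. PMAIP1 encodes NOXA, a BH3-only protein that neutralises MCL1, and BCL2L1 encodes BCL-XL, a pro-survival protein. BCL2 was also higher in every depleted sample but did not pass the test. BCL2L11 and BMF, the BH3-only genes best known in these cells, varied more among the samples with growth factors than between the conditions. A gene was called at an adjusted p under 0.05 (limma, Benjamini-Hochberg over 16988 genes) with a change of at least 2-fold. By this rule 2 of 10 members were called, beside 6.33% of all genes tested. In the upward direction the same 2 members stood beside 4.36%, and in the downward direction 0 of 10 beside 1.97%. At an unadjusted p under 0.05 there were 4 of 10 members, BCL2, BCL2L1, BBC3 and PMAIP1, beside 20.0% of all genes tested. In these 4 every depleted sample lay above every sample with growth factors, a pattern found upward in 13.5% of all genes tested. The median log2 fold change was 0.38 over the members and -0.03 over all genes tested. With 10 members chosen by name and with earlier results of these data known, no test of the group was made.

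**Figure D1:**
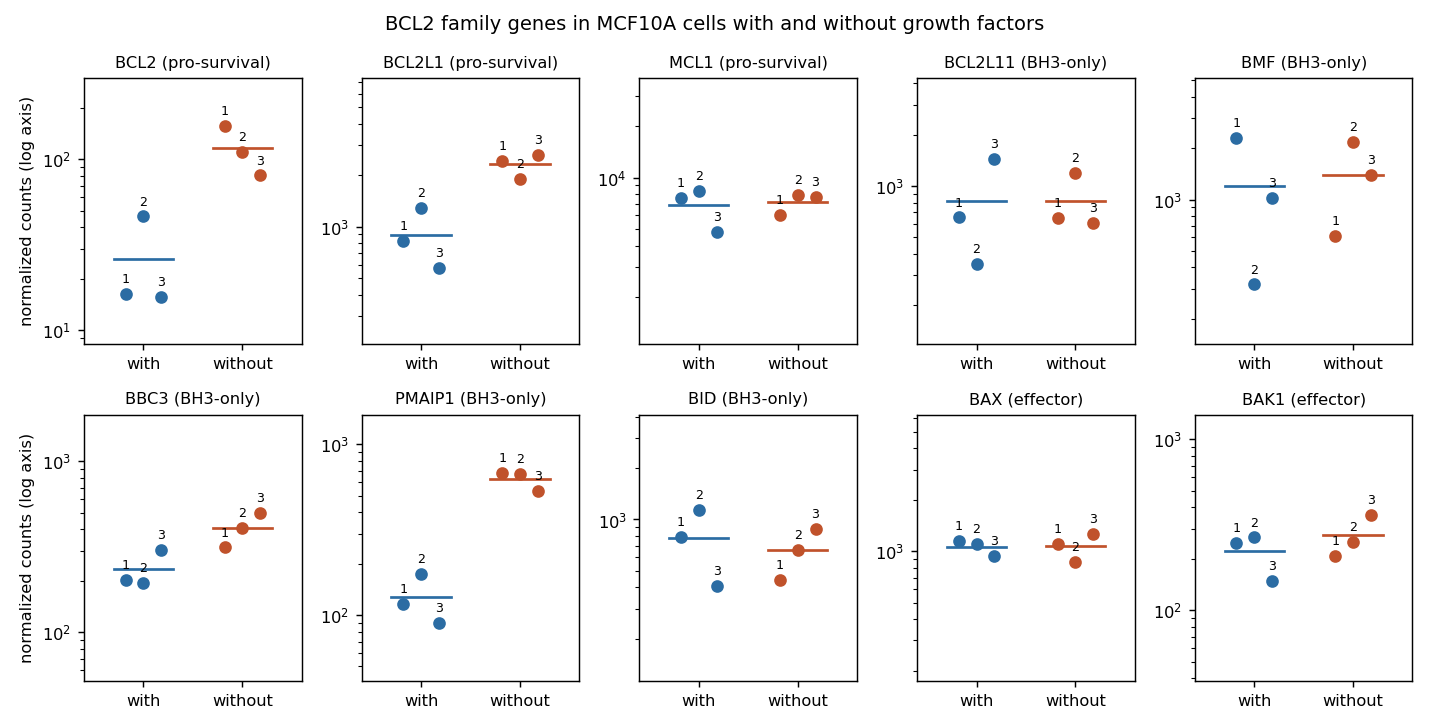
Normalized counts (log axis, each panel with its own scale of the same length) of the 10 members in the 3 samples with and the 3 without growth factors. Points are samples numbered by replicate and lines are group means. The groups are apart in BCL2, BCL2L1, BBC3 and PMAIP1, and overlap in the other 6 panels.

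Among the pro-survival genes, BCL2L1 (chr20:31664452-31723989, minus strand, 4197 bases of exon) was at 826, 1292 and 573 normalized counts with growth factors and at 2419, 1907 and 2643 without. The lowest depleted sample was above the highest sample with growth factors. The means were 897 ± 365 and 2323 ± 377 (SD, n = 3). The log2 fold change was 1.44 (SE 0.35, 95% interval 0.65 to 2.23, limma adjusted p = 0.047), a 2.71-fold higher level. The call is at the threshold, and with edgeR on the recovered reads the adjusted p was 0.0513. BCL2L1 stayed called without control replicate 2 or 3 and lost its call without each of the other 4 samples, the adjusted p reaching 0.186 without depleted replicate 3, although its log2 fold change stayed between 1.15 and 1.74. The antisense RNA ABALON, which overlaps BCL2L1, had means of 5.03 and 18.3 normalized counts, small against those of BCL2L1.

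BCL2, the founding pro-survival gene of the family (chr18:63123346-63320128, minus strand, 12612 bases of exon), had 16.3, 46.3 and 15.7 normalized counts with growth factors, from 13, 79 and 16 reads. Without growth factors it had 156.5, 110.2 and 80.5, from 171, 168 and 36 reads. Again the groups were apart, and replicate 2 with growth factors lay closest to the depleted samples. The log2 fold change of 2.23 was nearly that of PMAIP1, but its SE was 0.57 (95% interval 0.94 to 3.53), and the adjusted p was 0.0558, just outside the threshold. BCL2 was called without control replicate 2, with an adjusted p of 0.0373 and a log2 fold change of 2.73, and by DESeq2, with an adjusted p of 0.00469, but not by edgeR, with 0.0724.

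MCL1, a short-lived pro-survival protein and the main partner of NOXA, showed no such shift in its RNA (chr1:150560895-150579738, minus strand). It was at 7640, 8332 and 4832 normalized counts with growth factors and at 6078, 7910 and 7736 without, so that replicate 3 with growth factors was the lowest of all 6 and the groups overlapped. The log2 fold change was 0.09 (95% interval -0.67 to 0.86, adjusted p = 0.923), which leaves room for changes of up to about 1.81-fold upward. ADAMTSL4, on the opposite strand and overlapping MCL1 in the annotation, went from a mean of 1589 to 13.3 normalized counts. The strand setting of the counting is not stated, and how far the overlap affects the MCL1 count was not measured.

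Among the BH3-only genes, PMAIP1 (chr18:59899996-59904305, plus strand, 2186 bases of exon) was at 116.6, 174 and 89.5 normalized counts with growth factors and at 681, 672 and 532 without. The 3 depleted samples lay close together, and the lowest of them was well above the highest sample with growth factors. The means were 126.7 ± 43.1 and 628 ± 83.5 (SD, n = 3), with a log2 fold change of 2.35 (SE 0.35, 95% interval 1.55 to 3.15, adjusted p = 0.00656), a 5.08-fold higher level. PMAIP1 was called under each of the 20 alternatives, the adjusted p not exceeding 0.047 with any sample left out.

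BBC3 encodes PUMA, a BH3-only protein that binds all pro-survival members and is induced by FOXO factors (chr19:47220822-47232766, minus strand). It was at 203, 193.3 and 305 normalized counts with growth factors and at 314, 409 and 501 without. The groups were apart by a narrow gap, between replicate 3 with growth factors and replicate 1 without. The log2 fold change was 0.81 (SE 0.34, 95% interval 0.03 to 1.58), with an adjusted p of 0.232, and BBC3 was called under none of the 20 alternatives, the length and GC correction included (0.57 on the log2 scale).

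BCL2L11, whose product BIM is restrained by growth factor signalling through ERK (chr2:111119378-111168444, plus strand), was at 655, 349.8 and 1445 normalized counts with growth factors. Without them it was at 649, 1199 and 608. The samples with growth factors thus spanned a 4.13-fold range that enclosed all 3 depleted samples. The means were 817 ± 565 and 819 ± 330 (SD, n = 3), and the log2 fold change was 0.17 (95% interval -1.02 to 1.36, adjusted p = 0.905). Part of the long non-coding gene MIR4435-2HG lies on the opposite strand of BCL2L11, with means of 219 and 491 normalized counts.

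BMF, a BH3-only protein known for its release from the cytoskeleton (chr15:40087890-40108892, minus strand), was the most variable member. It was at 2287, 318 and 1018 normalized counts with growth factors and at 609.6, 2175 and 1386 without. Replicate 1 was the highest with growth factors and the lowest without, and the groups overlapped over nearly their whole range. The log2 fold change was 0.44 (95% interval -1.20 to 2.08, adjusted p = 0.802).

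BID, which caspase-8 cleaves to link death receptors to the mitochondrion (chr22:17734138-17774770, minus strand), was at 795, 1132 and 409 normalized counts with growth factors and at 441, 667 and 877 without. Its groups overlapped, with a log2 fold change of -0.17 (95% interval -1.16 to 0.82, adjusted p = 0.879). As fold changes the 95% intervals ran from 0.494 to 2.57 for BCL2L11, from 0.434 to 4.22 for BMF and from 0.448 to 1.76 for BID. Changes inside these bounds are compatible with the values, and the bounds are not limits of detection.

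**Figure D2:**
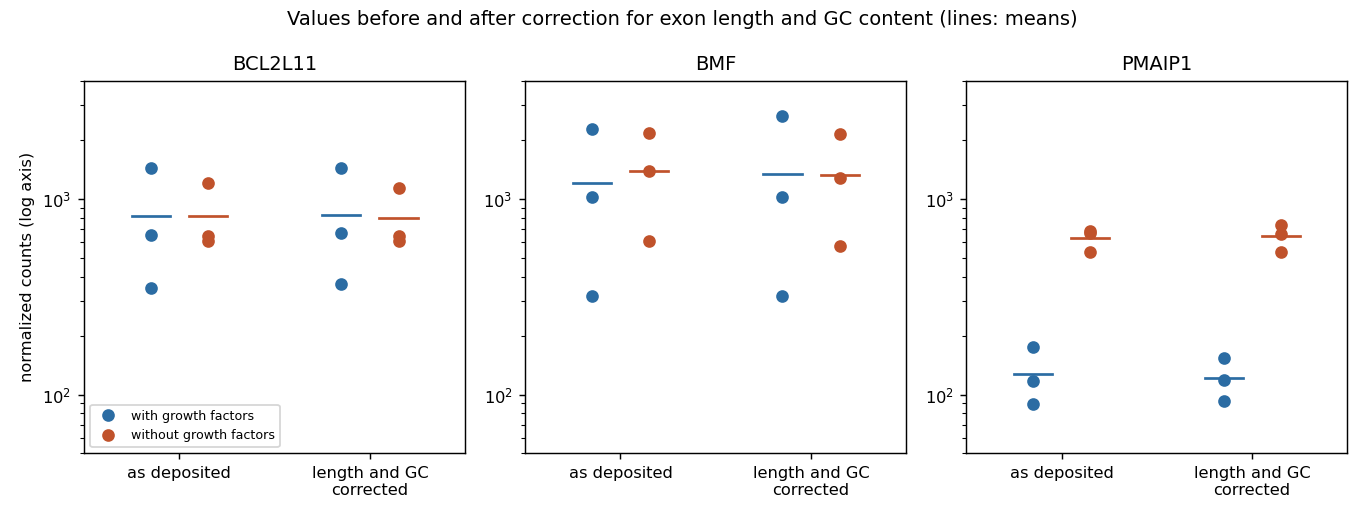
Normalized counts (log axis) of BCL2L11, BMF and PMAIP1 in each sample, as deposited and after each sample's deviation was regressed on exon length and GC content. Points are samples and lines are group means. The range with growth factors went from 4.13-fold to 3.91-fold in BCL2L11, from 7.19-fold to 8.36-fold in BMF and from 1.94-fold to 1.67-fold in PMAIP1, so the wide spread of the first pair remained.

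Libraries differed in how strongly they favoured long or GC-rich genes. Across 13035 genes, which are not independent replicates, the deviation of a library from the gene mean correlated with exon length at a Spearman's rho between -0.32 (replicate 2 with growth factors) and 0.38 (replicate 3 with growth factors). With GC content it lay between -0.31 and 0.22. BCL2L11 and BMF were lowest in replicate 2 with growth factors. The plot of values before and after correction shows that removing these trends left their order among the 3 samples as it was. After the correction the log2 fold changes were 2.41 for PMAIP1, 1.27 for BCL2L1, 2.20 for BCL2, 0.11 for BCL2L11 and 0.29 for BMF.

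The effectors did not pass the test in either direction. BAX, which moves from the cytosol to the mitochondrion (chr19:48954815-48961798, plus strand), was at 1153, 1099 and 936 normalized counts with growth factors and at 1102, 862 and 1263 without. With a log2 fold change of 0.01 (95% interval -0.61 to 0.62, adjusted p = 0.995) it had the narrowest interval of the members, from 0.654-fold to 1.54-fold. BAK1, which resides in the mitochondrial membrane, was at 248, 267 and 147.6 normalized counts with growth factors and at 209, 251 and 362 without (log2 fold change 0.32, adjusted p = 0.716). The groups overlapped for both. The processed pseudogene BAK1P1 is counted separately, at means of 84.7 and 101.4 normalized counts, so reads could be split between it and BAK1. How far this affects the level of BAK1 was not measured.

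**Figure D3:**
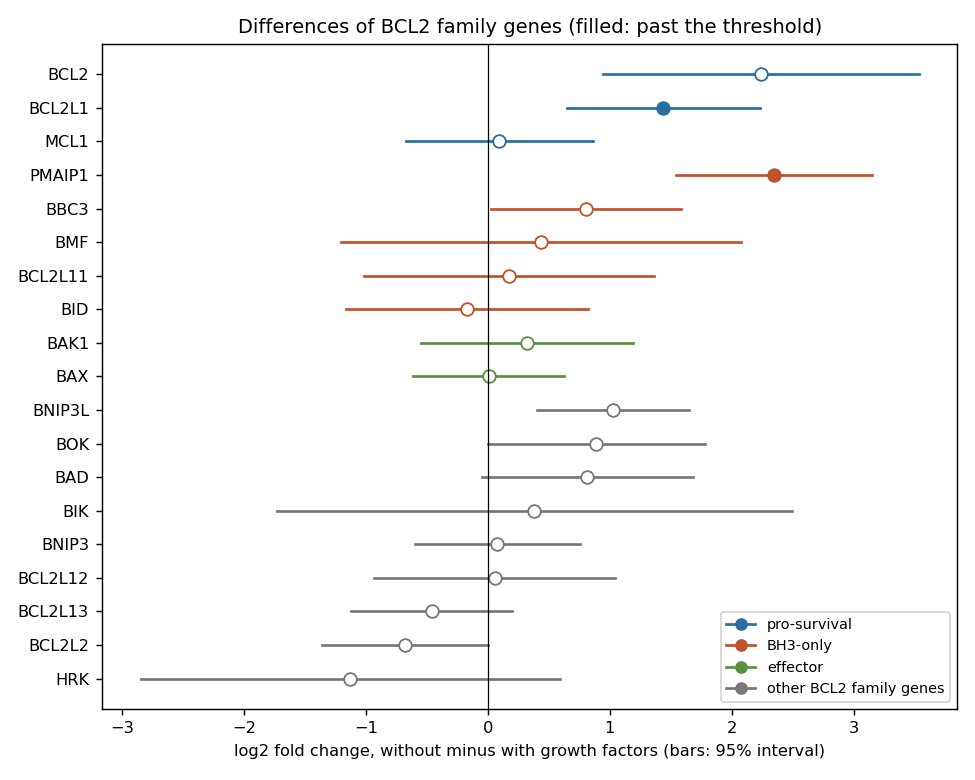
Log2 fold change (growth factor-depleted minus with growth factors) of the 10 members and of 9 other tested BCL2 family genes, with 95% intervals from the limma fit, n = 3 per group. Filled points passed the threshold, which only BCL2L1 and PMAIP1 did, while the intervals of BCL2, BBC3 and BNIP3L also lie wholly above 0 and that of BCL2L2 just below it.

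To compare genes with each other, normalized counts were divided by exon length in kilobases. With growth factors MCL1 led with 1115 ± 298 normalized counts per kb (SD, n = 3), followed by BAX with 411 ± 43.8. Next came BMF at 222 ± 183, BCL2L1 at 214 ± 87, BID at 176 ± 81.9 and BCL2L11 at 121 ± 83.8. BAK1 at 99.8 ± 29, BBC3 at 73.4 ± 19.4 and PMAIP1 at 58 ± 19.7 came below these, and BCL2 was last at 2.07 ± 1.39. From BAX down to PMAIP1 the samples of each gene overlapped those of the next, so that the order of neighbours is not fixed by these data. Genes further apart in the order could still be clear of each other, as BAX (at least 362) was of BCL2L1 (at most 308). MCL1 was clear of BAX, and BCL2 of PMAIP1.

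Without growth factors MCL1 still led, at 1164 ± 162 normalized counts per kb, and BCL2L1 had moved to second place with 554 ± 89.8. BAX followed at 416 ± 78 and PMAIP1 came next at 287 ± 38.2, ahead of BMF at 255 ± 144. The remaining members lay between 121 and 149.7, and BCL2 stayed last with 9.18 ± 3.04. In this order MCL1 was clear of BCL2L1, BAX of PMAIP1 and BCL2L11 of BCL2, and all other neighbours overlapped. Although its fold change was among the largest, BCL2 made up no more than 0.793% of the summed pro-survival level per kb in any sample.

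Within the pro-survival group BCL2L1 took a larger share without growth factors, which restates its own rise, since the MCL1 level per kb did not fall. BCL2L1 made up 13.8, 18.7 and 14.9% of the summed level per kb with growth factors and 36.8, 26.2 and 33.5% without. MCL1 made up 86.1, 81.1 and 84.9% with growth factors and 62.4, 73.3 and 66.2% without. Within the BH3-only group PMAIP1 made up 6.55, 15.7 and 6.49% with growth factors and 43.4, 26.4 and 25.8% without. This share follows the rise of PMAIP1 itself and also depends on BMF. In each condition BMF was lowest in the sample with the highest share, at 58.4 and 112 normalized counts per kb. In all 3 of these shares the groups were apart.

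In the balance between the groups the conditions were not apart. The summed BH3-only level per kb was 57.1, 30.7 and 69% of the summed pro-survival level with growth factors. Without growth factors it was 45.9, 67.1 and 50.2%, all 3 inside the range of the samples with growth factors. The summed pro-survival level was 1426, 1651 and 914 normalized counts per kb with growth factors and 1566, 1734 and 1879 without. The BH3-only sum was 814, 507 and 631 with growth factors and 718, 1164 and 944 without. BMF, the most variable member, gave 420, 58.4 and 187 of it with growth factors and 112, 399 and 255 without. Its spread thus enters the percentages above, which could hide a shift in the other genes. Both sums overlapped between the conditions, and a sum of RNA levels is no measure of the proteins' occupancy.

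**Figure D4:**
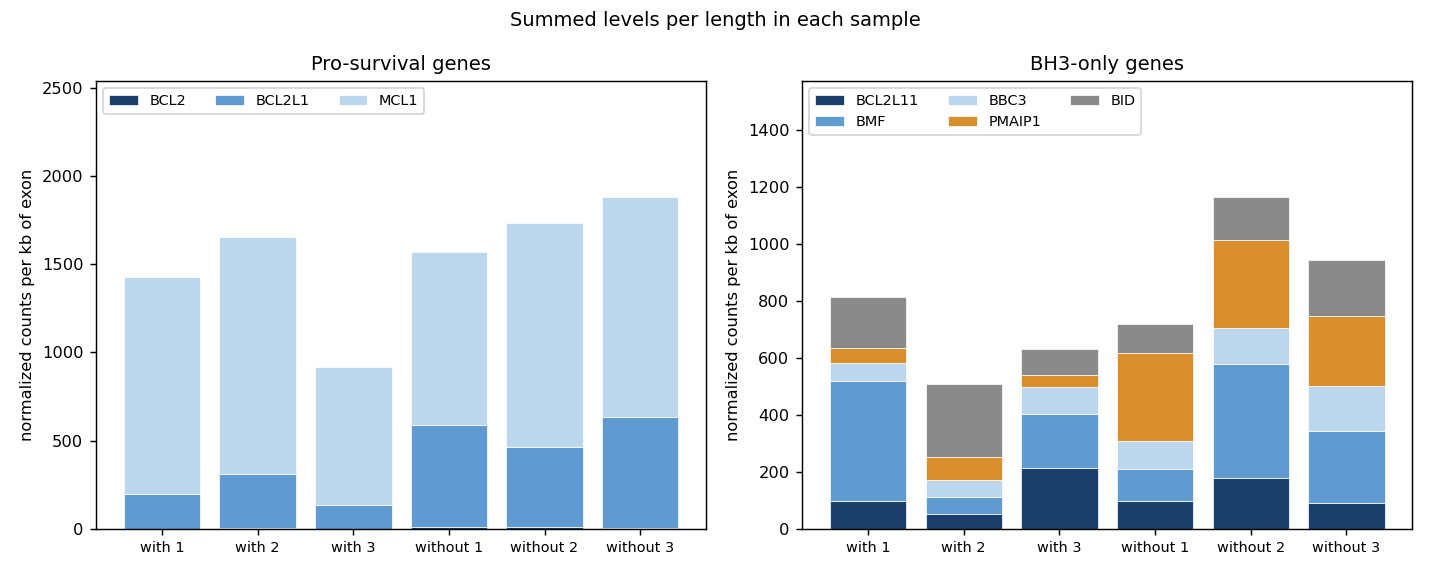
Summed normalized counts per kb of exon for the pro-survival genes (left) and the BH3-only genes (right) in each of the 6 samples, stacked by gene. The BCL2L1 segment is at least 454 in each depleted sample and at most 308 with growth factors, and the PMAIP1 segment is at least 243 against at most 79.6.

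The pattern of PMAIP1 across the 6 samples was closest to those of NT5DC3, PKIA and NAV3, among 11687 genes with a mean of at least 100. Likeness was the root mean square difference of log2 values centred on each gene's own mean, which came to 0.20, 0.22 and 0.24. Among the genes closest to BCL2L1 were CAVIN1 and DGCR6L, with differences of 0.12 and 0.13. CAVIN1, a coat protein of caveolae, went from 4666, 7060 and 3776 to 14140, 11974 and 13677 normalized counts. Its replicates had the same order as those of BCL2L1 with growth factors but not without. These genes were picked for likeness over the same samples, so a shared order is partly built in. Among the members themselves PMAIP1 was nearest to BCL2 (0.32) and farthest from BMF (1.52). With 6 samples in 2 groups these differences describe the samples and were not tested.

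Of the other BCL2 family genes, 10 of 13 listed were in the table, 9 were tested and none was called. BCL2A1, BCL2L10 and BCL2L14 were not analysed here. BNIP3L, a mitochondrial protein of mitophagy also called NIX, came nearest. It was at 1613, 2017 and 2041 normalized counts with growth factors and at 4416, 3991 and 3200 without, with the groups apart, a log2 fold change of 1.03 and an adjusted p of 0.0657. BCL2L2, the pro-survival gene that encodes BCL-W, was the only other one with groups apart. It was lower without growth factors in every sample (755, 786 and 930 against 524.5, 386 and 657), with a log2 fold change of -0.68 and an adjusted p of 0.248. The effector-like BOK had a log2 fold change of 0.89 (adjusted p = 0.251) and BAD, a BH3-only protein that survival kinases phosphorylate, 0.82 (adjusted p = 0.281), both with overlapping groups. The BH3-only genes BIK (0.38) and HRK (-1.13), as well as BCL2L12 (0.06), BCL2L13 (-0.46) and BNIP3 (0.08), had adjusted p-values of 0.441 or more. BCL2L15 was at 2.9 to 10 normalized counts and was not tested.

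Beyond the family, 6 lists of the surrounding pathway held 82 genes, the other family genes included. Of these 77 were in the table and 76 were tested, with 0 called higher and 3 called lower, beside the 4.36% and 1.97% of all genes. The median log2 fold change of the 76 was -0.02. At an unadjusted p under 0.05 there were 11 of the 76, beside 20.0% of all genes tested. Every depleted sample lay above every sample with growth factors in 4 of the 76 and below in 9. Over all 16988 genes tested these patterns were found in 2296 and 2053, so groups apart were no more frequent in these lists. The 3 called genes were FOXO1, BIRC3 and TP63.

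FOXO1, a transcription factor held out of the nucleus by insulin and AKT signalling and known to activate BCL2L11 and BBC3, was at 1574, 1144 and 1451 normalized counts with growth factors and at 333, 494 and 387 without. The groups were well apart, with a log2 fold change of -1.78 (SE 0.29, adjusted p = 0.00866). TP63, a transcription factor that marks basal epithelium, was at 271, 359 and 1615 normalized counts and then at 8.2, 64.9 and 42.5 (log2 fold change -4.18, adjusted p = 0.027). BIRC3, an inhibitor of apoptosis protein and NF-kB target, was at 3589, 1892 and 895 and then at 489.7, 374 and 499 (log2 fold change -2.02, adjusted p = 0.0433). All 3 were lower in every depleted sample. FOXO1 kept its call without 5 of the 6 samples, TP63 without 3 and BIRC3 without 1. FOXO3, the relative most often tied to BCL2L11, had a log2 fold change of 0.07 (adjusted p = 0.935).

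Of the 18 listed genes of p53 and its targets none was called, beside 6.33% of all genes tested. The list was made without the members, so it does not cover PMAIP1, BBC3 or BAX. Among them the cell cycle inhibitor CDKN1A and ZMAT3 had the highest means over the 6 samples, with log2 fold changes of 0.89 and -0.02 (adjusted p = 0.349 and 0.989). GDF15 (1.44, adjusted p = 0.1) and FDXR (-1.09, adjusted p = 0.0728) had groups apart in opposite directions, and SESN1 was also lower in every depleted sample (-0.69, adjusted p = 0.288). Of the stress factors upstream of PMAIP1, ATF4 had a log2 fold change of 0.15 (adjusted p = 0.854) and DDIT3 of 0.49 (adjusted p = 0.583).

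Of 13 genes of the apoptosome and the caspases none was called, with CYCS (cytochrome c) at -1.33 (adjusted p = 0.278) and DFFA, the inhibitor of the caspase-activated nuclease, at -0.07 (adjusted p = 0.938) the most abundant. AIFM1 was the only one of them with groups apart, at 1187, 1033 and 429 normalized counts against 384, 292 and 373 (log2 fold change -1.21, adjusted p = 0.138). Of 13 death receptor genes none was called either. The most abundant were the TRAIL receptor TNFRSF10B and CFLAR, which blocks caspase-8, with log2 fold changes of -0.19 and 0.16 (adjusted p = 0.786 and 0.857). FADD and RIPK1 were higher and CASP10 was lower in every depleted sample, each with an adjusted p of at least 0.201.

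**Figure D5:**
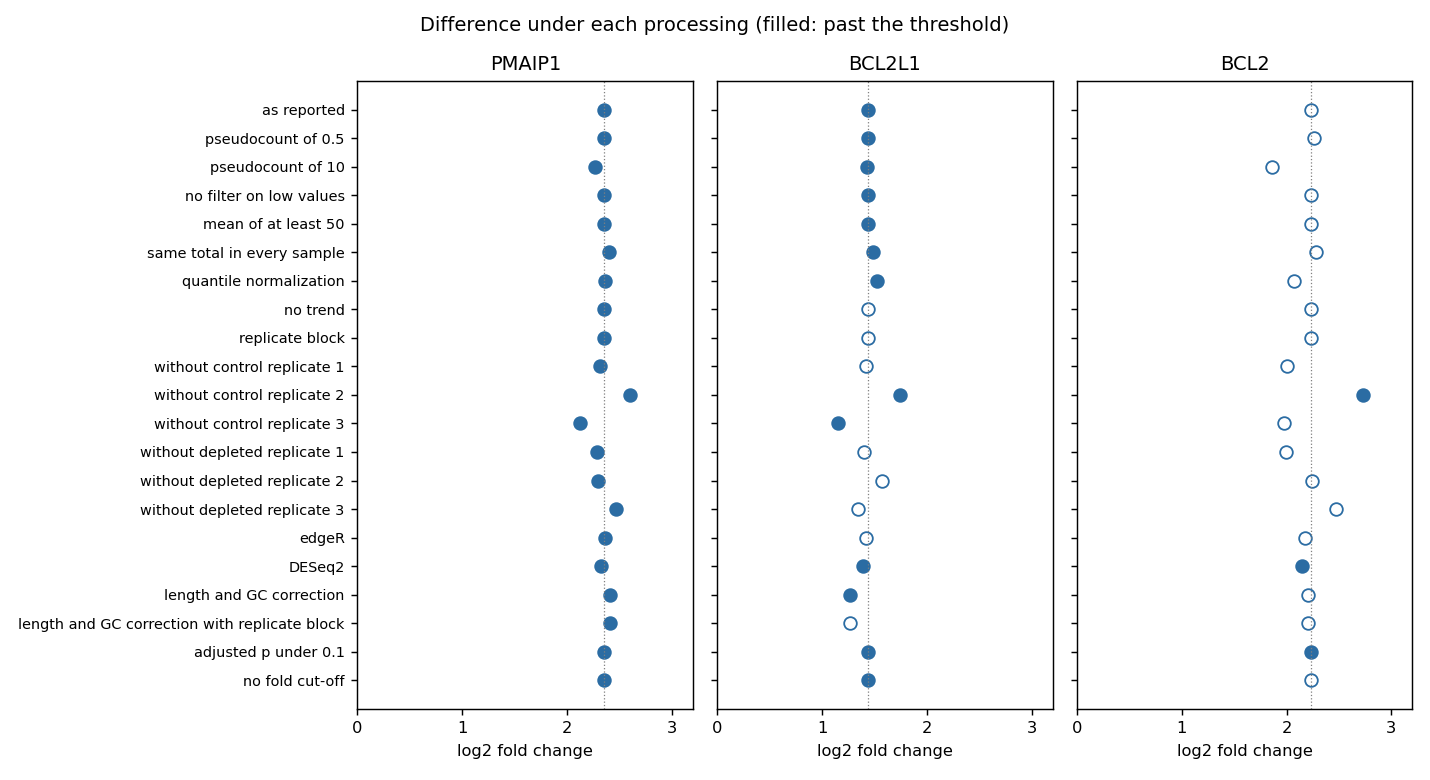
Log2 fold change (growth factor-depleted minus with growth factors) of PMAIP1, BCL2L1 and BCL2 as reported and under 20 other ways of processing the data, with filled points past the threshold of that setting. PMAIP1 is filled throughout, BCL2L1 in 13 of 21 rows and BCL2 in 3.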

How the data were processed

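MCF10A cells gave 6 RNA-Seq samples, 3 with growth factors and 3 growth factor-depleted, grouped and numbered from the labels, which list 3 samples per condition where the design text speaks of fewer. The authors sequenced single ends of stranded libraries made after removal of ribosomal RNA, and trimmed the reads with cutadapt 1.6. TopHat2 alignments to hg38 were counted with HTSeq 0.6 (Gencode v22), and each count was scaled by a size factor from DESeq2 1.8.1 (R 3.2.0). The deposited values are thus a normalized signal per gene, with no division by length. Whole reads were recovered from 100% of the values (tolerance 0.01 reads).

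Names, exon lengths and positions were read from Gencode v44, also on hg38, in which 18913 of 19198 identifiers have a name. Where the 2 annotations differ, a length per kb can be off. Depth was 7472418 to 28672630 reads on genes per sample. The floor of 3 reads covers counting error only, since reads carried no molecular identifiers.

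Groups were compared by lmFit and trended eBayes (limma 3.58.1, R 4.3.3). The values were log2-transformed after adding 1, and 16988 genes averaging 10 or more were tested, with Benjamini-Hochberg adjustment over all of them. Fold changes are on this scale, so they understate the change of low genes. The 95% intervals used limma's moderated degrees of freedom, 8.46. A call needed a 2-fold change and an adjusted p under 0.05. The procedure was tested on simulated data.

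The alternatives, 20 in all, were pseudocounts of 0.5 and 10, no filter, a mean of at least 50, the same total in every sample, quantile normalization, no trend, a block for the replicate number, omission of each sample, edgeR 4.0.16 (quasi-likelihood) and DESeq2 1.42.0 on the recovered reads, an adjusted p under 0.1, no fold cut-off, and a regression on exon length and GC content without and with the block.

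The members, lists and tests were chosen with earlier results of these data known. Named are all members, the other family genes listed, the called genes of each pathway list or else its 2 most abundant, and the 3 genes most like each called member. AIFM1, FADD, RIPK1, CASP10, GDF15, FDXR, SESN1, FOXO3, ATF4, DDIT3 and genes overlapping members were added after their values were seen. A few genes that these rules would name are not reported here. No protein sequences were used here. Python 3.11.15 was used for tables and figures, with pandas 2.3.3, numpy 2.4.6, scipy 1.17.1 and matplotlib 3.10.9.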

Additional observations from a re-analysis of the deposited data

How the results depend on the processing

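PMAIP1 was called under all 20 alternatives, and BBC3, BAK1, BMF, BID, BCL2L11, BAX and MCL1 under none. With the replicate number as a block, 1 of the 10 members was called (PMAIP1, adjusted p = 0.011), BCL2L1 having an adjusted p of 0.0894 at the same log2 fold change of 1.44, and 3 of the pathway genes. The numbers are not said to pair samples, so they were not taken as pairs. Same-numbered samples did not deviate together (r = -0.07, -0.28 and -0.32), and no sample correlated best with its own number. Since libraries also differed in their length and GC trends, these correlations cannot settle whether samples were paired. The block together with the length and GC correction left 1 member and 707 genes in all, against 1076 as reported. Without the trend 1 member and 1 pathway gene (FOXO1) were called, and with edgeR 1 member. DESeq2 called 3 members, 8 pathway genes and 2112 genes in all, and an adjusted p under 0.1 gave 3 members, 5 pathway genes and 1706 genes. The cause of these changes was not tested, apart from the looser threshold itself. Under the length and GC correction, with or without the block, BAX changed sign to -0.18 on the log2 scale. Leaving out 1 sample at a time gave 1 to 3 members, 0 to 8 pathway genes and 453 to 2474 genes in all, the last without control replicate 3 and the first without depleted replicate 2. The log2 fold changes then ran from 1.98 to 2.73 for BCL2, from -0.15 to 0.24 for MCL1, from -0.32 to 0.70 for BCL2L11, from -0.32 to 1.10 for BMF, from -0.57 to 0.16 for BID and from -0.12 to 0.16 for BAX. These 5 uncalled genes from MCL1 to BAX changed sign with 1 or more samples left out. Without depleted replicate 1, the sample with low CDH1, only PMAIP1 was called among the members. The same held without control replicate 1, depleted replicate 2 or depleted replicate 3. BCL2 rested on the fewest reads of the members, 13 to 171 in a sample.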

Other observations

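PMAIP1 and BCL2, a death gene and a survival gene whose log2 fold changes were 2.35 and 2.23, lie on the same arm of chromosome 18, with 3.22 Mb between them. Of the genes in that gap 12 were tested. Their median log2 fold change was -0.31, with 3 positive and 9 negative. TNFRSF11A, the receptor RANK of mammary gland development, was called lower, at 419.8, 212.7 and 474 normalized counts with growth factors against 50.3, 59 and 60.4 without (log2 fold change -2.61, limma adjusted p = 0.00853). The pseudogene NFE2L3P1 was called higher, from 1.3, 5.9 and 2 normalized counts, with 1 to 10 reads in a sample, to 55.8, 45.2 and 64.8. PHLPP1, a phosphatase of AKT, was at a log2 fold change of -0.78 (adjusted p = 0.333) with overlapping groups. The shared position of PMAIP1 and BCL2 was noticed after their values were seen, and no test of it was made.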
